A study of Mus musculus with 12 samples.

Results

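The suppressors of cytokine signalling (SOCS) are a family of 8 proteins, Socs1 to Socs7 and Cish, and their transcripts were followed in mouse liver over the first 6 h after concanavalin A (ConA). Every probe set whose platform gene symbol was one of the 8 members was taken, which gave 24 of the 45101 probe sets of the deposited table. Socs2 had 6 of them, Socs4 and Socs7 had 4 each, Socs3 and Socs6 had 3 each, Socs5 had 2, and Socs1 and Cish had 1 each. The livers came from male Balb/C mice of 8 to 10 weeks. ConA, a plant lectin that activates T cells and injures the liver, was injected into the tail vein at 20 mg/kg, and whole liver was taken 1, 3 or 6 h later (groups ConA 1 h, ConA 3 h and ConA 6 h). The mice at 0 h, which the labels call untreated and the methods call PBS controls, served as the comparison for all 3 time points. Each of these 4 groups had 3 arrays. Since controls were taken at 0 h only, an effect of ConA and one of time of day cannot be told apart.

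SOCS proteins form a classical negative feedback loop. A cytokine or growth hormone receptor activates JAK kinases, these phosphorylate STAT transcription factors, and the STATs switch on genes that include members of the SOCS family. Each member has an SH2 domain, which binds phosphorylated receptors or kinases, and a SOCS box, which recruits elongins B and C and a cullin ligase that marks the bound protein for degradation. Socs1 and Socs3 also carry a short region that blocks JAK activity directly. In liver, Socs3 is known to limit signalling by interleukin 6 through the receptor chain gp130, Socs1 that by interferon gamma, and Socs2 and Cish that by growth hormone. Socs4 and Socs5 are linked to the epidermal growth factor receptor, and Socs6 and Socs7 to insulin and other receptor tyrosine kinase signalling.

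Of the 24 probe sets, 7 were higher and none lower at ConA 1 h than at 0 h (limma, adjusted p under 0.05), against 1.29% higher and 0.255% lower among the 45037 probe sets tested. At ConA 3 h, 11 were higher and 1 lower (background 3.77% and 9.83%), and at ConA 6 h, 14 were higher and none lower (background 12.0% and 8.37%). A probe set that passed as higher was found for 3 genes at 1 h (Socs2, Socs3 and Cish), for 5 genes at 3 h (with Socs1 and Socs4) and for 7 genes at 6 h (with Socs5 and Socs6). Over the 4 time points together, 15 of the 24 passed the F test, against 28.1% of all probe sets. All 3 ConA arrays lay above all 3 arrays at 0 h in 12 family probe sets for ConA 1 h (11.2% of all probe sets), 13 for ConA 3 h (8.00%) and 15 for ConA 6 h (20.8%). The family's median log2 change was 0.61, 0.69 and 0.98 over these comparisons, and that of all probe sets was 0.07, -0.18 and 0.04. Signals were used as deposited, so the lower arrays at 3 h carry this shift of -0.18, and weak changes are given below with their values after scaling. Probe sets of one gene may read the same transcripts, on the same arrays, and are not taken as independent of each other.

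**Figure D1:**
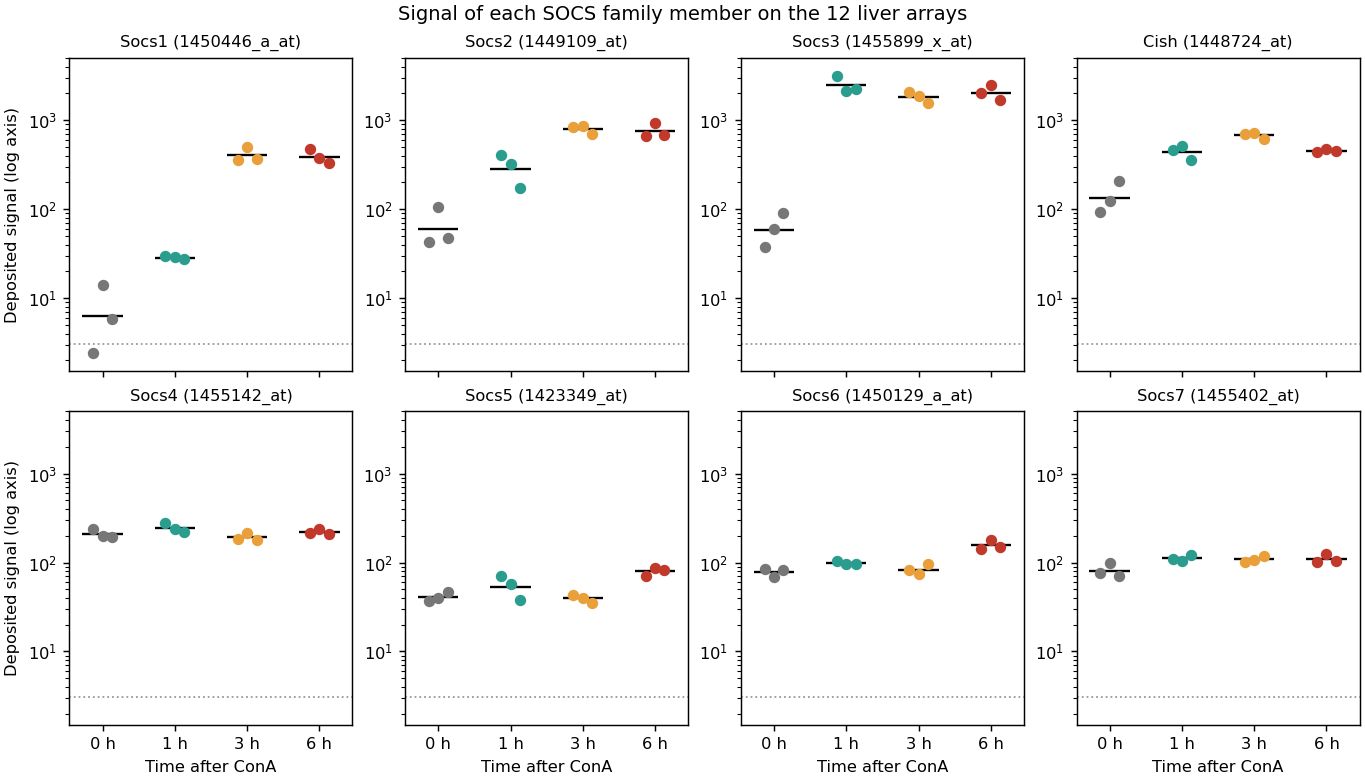
Deposited signal (log axis) of each member's probe set with the highest mean, by time after ConA, with 1 point per array, 3 arrays per time point, a black bar at the mean of the log values and a dotted line at the floor of 3.04. Socs3 was at 2152 or more on all 3 arrays at 1 h, while Socs1 lay between 27.4 and 29.8 at 1 h and between 357 and 500.5 at 3 h.

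Sequences around the start of 3 responding genes are shown because the family is known as a target of STAT and interferon-regulated factors. Start regions of 4 of the 8 members (Socs1, Socs3, Socs4 and Cish) were in the RefSeq promoter table of build GRCm38.p6. They were searched for TTCNNNGAA, the core of a STAT site, which reads as its own mirror on the other strand, and on both strands for GAAA followed after any 2 bases by GAAA, the core of an interferon regulatory factor site. Among the 300-base windows of 27025 genes, 9.55% held the first motif and 3.99% the second. The Socs3 region (chr11:117969367-117969616, minus strand, 250 bases ending at the start site) held 1 copy of TTCNNNGAA, in capitals, 154 to 146 bases before the start.
Socs3: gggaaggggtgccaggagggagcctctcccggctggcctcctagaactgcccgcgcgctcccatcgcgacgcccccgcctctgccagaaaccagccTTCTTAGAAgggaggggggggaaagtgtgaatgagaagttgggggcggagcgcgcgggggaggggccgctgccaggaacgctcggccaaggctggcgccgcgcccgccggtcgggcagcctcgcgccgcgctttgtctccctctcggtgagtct

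The Socs1 region (chr16:10785537-10785786, minus strand) held no TTCNNNGAA and 2 overlapping copies of the GAAA pair, shown as one run in capitals, at 83 to 74 and 77 to 68 bases before the start.
Socs1: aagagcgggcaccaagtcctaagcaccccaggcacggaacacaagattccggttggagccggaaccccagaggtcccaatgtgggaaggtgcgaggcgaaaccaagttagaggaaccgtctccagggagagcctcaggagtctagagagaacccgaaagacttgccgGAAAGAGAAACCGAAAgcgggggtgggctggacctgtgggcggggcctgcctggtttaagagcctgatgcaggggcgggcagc

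In Cish, the 250 bases before the start held neither motif, and 2 copies of TTCNNNGAA lay just past it, at bases 1 to 9 and 12 to 20, and the 30 bases of chr9:107296654-107296683 (plus strand), of which 5 come before the start, are shown with both copies in capitals.
Cish: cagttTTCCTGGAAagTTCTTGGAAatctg

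The Socs4 window held neither motif. A match describes letters only, and no binding was measured in these livers.

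Socs3 rose within 1 h and stayed high. Its brightest probe set, 1455899_x_at, had signals of 37.8, 60.3 and 90.6 at 0 h, 3177, 2152 and 2263 after 1 h, 2058, 1874 and 1578.5 after 3 h, and 2018, 2508 and 1690.4 after 6 h. No array after ConA overlapped the 0 h arrays. The 1 h arrays lay above all 3 h arrays, while the 6 h arrays overlapped both. The log2 change against 0 h was 5.40 for ConA 1 h (SE 0.30, adjusted p = 5.27e-05), a 42.2-fold higher signal. For ConA 3 h it was 4.95 (adjusted p = 2.12e-05), and for ConA 6 h 5.11 (adjusted p = 1.16e-05). Neither step between ConA time points passed the test, with -0.45 for 3 h against 1 h (95% interval -1.14 to 0.24, adjusted p = 0.382) and 0.16 for 6 h against 3 h (95% interval -0.52 to 0.85, adjusted p = 0.808).

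The other Socs3 probe sets moved in the same way. Probe set 1456212_x_at had signals of 1510.2, 1363 and 1183 at ConA 1 h, against 41.6, 24.5 and 42.3 at 0 h, a log2 change of 5.26 (SE 0.21, adjusted p = 7.68e-06). Probe set 1416576_at had 855, 763 and 592 at ConA 1 h, against 35.3, 33.1 and 42.2 at 0 h, a log2 change of 4.31 (SE 0.18, adjusted p = 1.22e-05). Later the changes of 1456212_x_at were 5.04 (3 h) and 5.19 (6 h) and those of 1416576_at were 4.24 and 4.15, so that all 3 probe sets reached their level by the first time point. In the platform's naming, a probe set ending in _x_at may also bind other transcripts, and 1416576_at, which lacks that mark, gave the smallest of the 3 changes at every time point.

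Socs1, whose loss in mice is known to unleash interferon gamma, came up later. Its single probe set, 1450446_a_at, had signals of 2.40, 14.1 and 5.78 at 0 h, 29.8, 28.7 and 27.4 after 1 h, 357, 500.5 and 369 after 3 h, and 472, 380.0 and 331 after 6 h. The groups at 0 h, 1 h and 3 h did not overlap, and those at 3 h and 6 h did. One array at 0 h lay under the floor of 3.04 and was set to it before log2 was taken. The log2 change was 6.01 for ConA 3 h (SE 0.45, adjusted p = 6.4e-05), a 64.4-fold higher signal, and 5.96 for ConA 6 h (adjusted p = 4.04e-05). Socs1 thus had the largest log2 change of the 24 probe sets at 3 h and at 6 h.

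At 1 h the Socs1 change of 2.19 (SE 0.45, 95% interval 1.17 to 3.21) just missed the threshold at an adjusted p of 0.0549, although all 3 ConA arrays were above all 3 arrays at 0 h. Without 0 h replicate 2, the brightest of the 0 h arrays, the change was 2.77 with an adjusted p of 0.00309. Leaving out any other array did not bring it under the threshold, and the adjusted p was then up to 0.15. The step of 3 h over 1 h was itself tested and came to 3.82 on the log2 scale (SE 0.45, adjusted p = 0.00134), a 14.1-fold higher signal at 3 h than at 1 h. No further step was seen at 6 h against 3 h (-0.05, 95% interval -1.07 to 0.97).

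Socs2, which restrains growth hormone signalling and whose loss gives oversized mice, rose in 2 steps. Its brightest probe set, 1449109_at, had signals of 43.0, 105 and 47.3 at 0 h, 408, 325 and 171 after 1 h, 832, 860.3 and 703 after 3 h, and 664, 940.4 and 684 after 6 h. The arrays at 1 h lay above all those at 0 h and below all those at 3 h. Against 0 h the log2 change was 2.24 for ConA 1 h (SE 0.39, adjusted p = 0.0255), 3.73 for ConA 3 h (adjusted p = 0.00043) and 3.65 for ConA 6 h (adjusted p = 0.000246). The step of 3 h over 1 h was 1.49 (SE 0.39, adjusted p = 0.0349). These calls at 1 h and for the step are close to the threshold. For ConA 1 h the adjusted p was 0.0861 and 0.0938 when replicate 1 or replicate 3 of the 0 h arrays was left out, and 0.0875 and 0.0952 when replicate 1 or replicate 2 of the 1 h arrays was. For the step it was 0.0668 and 0.0776 when replicate 2 or replicate 3 of the 1 h arrays was left out, and 0.0837, 0.0922 and 0.0746 when replicate 1, 2 or 3 of the 3 h arrays was.

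The 6 probe sets of Socs2 did not share one time course. Probe set 1418507_s_at followed the brightest one, with log2 changes of 2.30 (adjusted p = 0.0552, not passed), 3.93 and 3.94 over the time points. Probe set 1438470_at was dim and later, with 1.05 (not passed), 2.73 and 2.76, and also had 1 array under the floor at 0 h. In contrast, 1446085_at had signals of 2.33, 14.5 and 15.9 at 0 h, 151, 81.8 and 86.4 after 1 h, 118, 115 and 129 after 3 h, and 53.6, 67.8 and 60.2 after 6 h. Its log2 changes were 3.52 (adjusted p = 0.0154), 3.76 and 2.76, and the first had an adjusted p of 0.0613 without ConA 1 h replicate 1. One array at 0 h, replicate 1, lay under the floor, and without it the changes were 2.75, 2.99 and 1.99 and still passed. Probe set 1442586_at had the same shape, with signals of 12.3, 29.9 and 18.7 at 0 h, 70.6, 77.9 and 69.8 after 1 h, 108, 102 and 97.6 after 3 h, and 53.4, 59.3 and 69.9 after 6 h. For both of these the 6 h arrays were below all 3 h arrays, as in 6.03% of all probe sets, and the differences of the deposited signals did not pass the test (adjusted p = 0.088 for 1442586_at and 0.283 for 1446085_at). That of 1442586_at passed after quantile normalization (-1.12, adjusted p = 0.0217), after scaling to a common median (-1.14, adjusted p = 0.0198) and when replicate 1 or 2 of the 0 h arrays was left out (adjusted p = 0.0238 and 0.0183). That of 1446085_at passed without 0 h replicate 1 (adjusted p = 0.0214) and under neither scaling. The sixth, 1441476_at, stayed below 8.4 on all 12 arrays and passed in no comparison.

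Setting the probe sets of a gene against each other within an array removes the array's own brightness. The log2 ratio of 1442586_at over 1449109_at averaged -1.96, -2.96 and -3.64 over the ConA time points, and that of 1446085_at over 1449109_at averaged -1.47, -2.72 and -3.64. Both ratios differed between the 3 ConA time points (exact permutation test over 1680 assignments of the 9 arrays, p = 0.00357, adjusted p = 0.0116 over 13 ratios tested), and 0.00357 is the smallest p this design can give. The ratios of 1418507_s_at and 1438470_at over 1449109_at did not pass (exact permutation test, adjusted p = 0.103 and 0.532), and neither did that of 1441476_at (0.172) or those of the other Socs3 probe sets over 1455899_x_at (0.448 and 0.389). These ratios were chosen after the values had been seen. Which transcript each Socs2 probe set reads was not examined.

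Cish, the first member of the family to be described and a known target of Stat5, rose less at 3 h and 6 h than the brightest probe sets of Socs1, Socs2 and Socs3. Probe set 1448724_at had signals of 93.7, 123 and 205 at 0 h, 465, 516 and 358 after 1 h, 702, 722 and 620.0 after 3 h, and 444, 478 and 449 after 6 h. All arrays after ConA were above those at 0 h, the 3 h arrays were above all the others, and the 1 h and 6 h arrays overlapped. Against 0 h the log2 change was 1.73 for ConA 1 h (SE 0.25, adjusted p = 0.0115), 2.35 for ConA 3 h (adjusted p = 0.000502) and 1.78 for ConA 6 h (adjusted p = 0.00114). The higher level at 3 h did not pass the test against either neighbour, with 0.62 for 3 h against 1 h (adjusted p = 0.135) and -0.57 for 6 h against 3 h (adjusted p = 0.17). Without 0 h replicate 3, which narrows the pooled spread and leaves these differences as they are, the adjusted p values were 0.0343 and 0.0412.

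**Figure D2:**
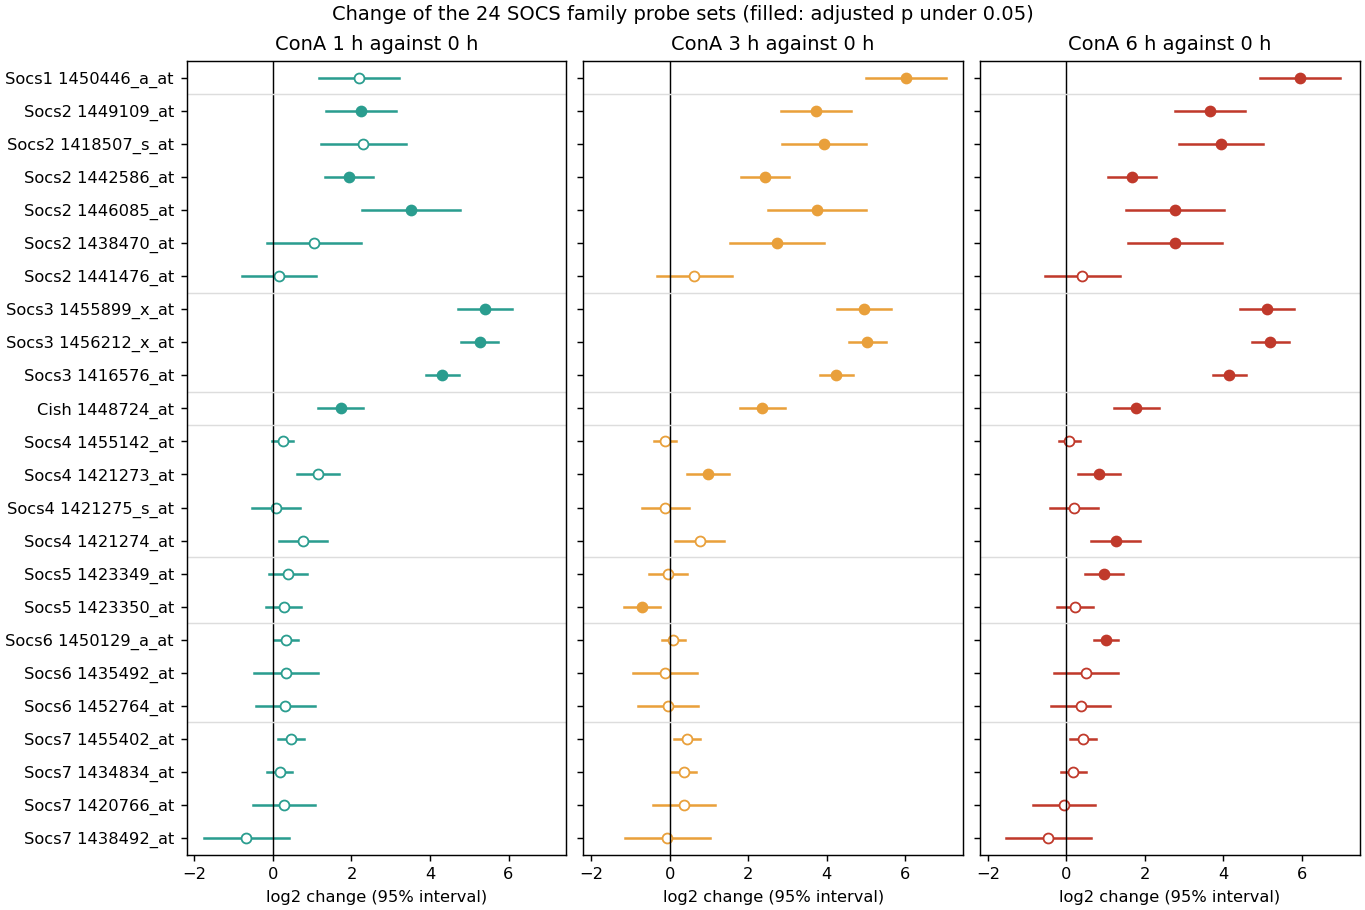
The log2 change (horizontal axis) of each of the 24 probe sets at each ConA time point against 0 h, with its 95% interval, from limma on 12 arrays. Filled points passed an adjusted p of 0.05, and these are 7, 12 and 14 of 24 from left to right, with Socs1 moving to the far right between 1 h and 3 h.

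Whether Socs1, Socs2, Socs3 and Cish differed in their course after ConA was tested by the same within-array ratios over the 3 ConA time points. These members were chosen after their values had been seen. The test leaves out 0 h and takes no account of the order of the time points, so it does not test an order of rise. The log2 ratio of Socs1 over Socs3 averaged -6.44 at 1 h, -2.18 at 3 h and -2.39 at 6 h (SD 0.26, 0.32 and 0.32, n = 3 each, exact permutation test, p = 0.0143, adjusted p = 0.0266). Socs2 over Socs3 averaged -3.14, -1.20 and -1.44 (exact permutation test, p = 0.00714, adjusted p = 0.0186). Relative to Socs3, both members were therefore lowest at 1 h. Socs1 over Cish averaged -3.95, -0.75 and -0.23, and Socs2 over Cish -0.64, 0.23 and 0.72 (exact permutation test, adjusted p = 0.0116 for each). Socs3 over Cish was highest at 1 h, with 2.50, 1.42 and 2.16 (exact permutation test, adjusted p = 0.0232). The ratio of Socs1 over Socs2, at -3.31, -0.98 and -0.95, did not pass after adjustment (exact permutation test, p = 0.0357, adjusted p = 0.058). The size of such a ratio depends on the brightness of its probe sets, and only its change over time was compared.

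**Figure D3:**
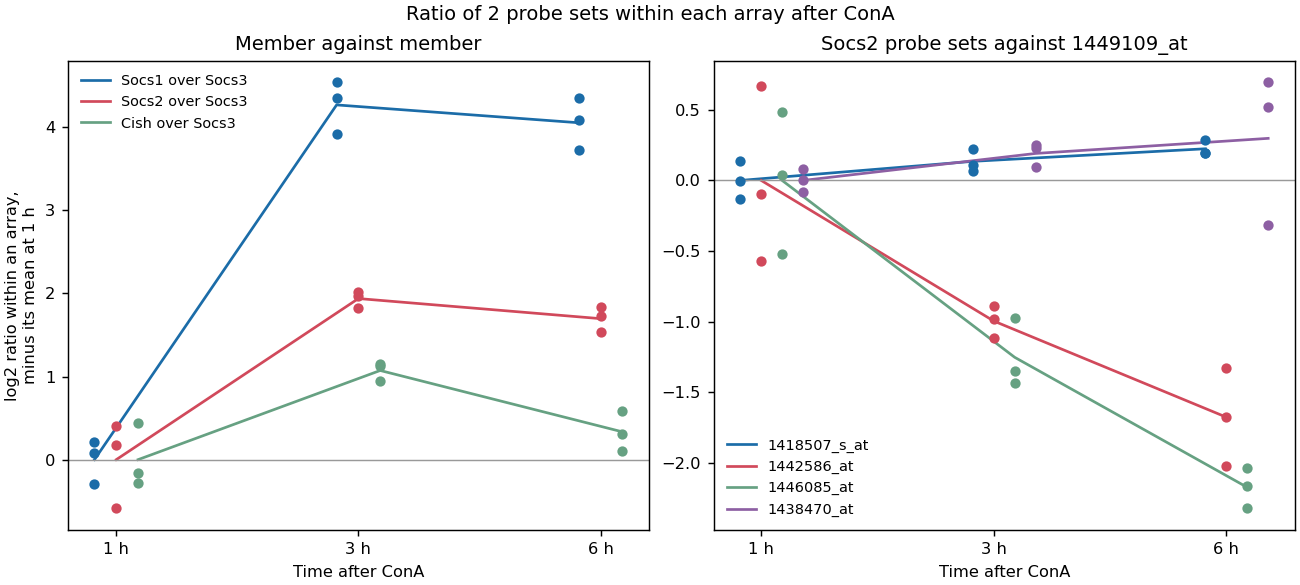
Log2 ratio of a pair of probe sets within each array, minus its mean at 1 h (vertical axis), by time after ConA, with 1 point per array and lines through the means of 3 arrays. On the left, Socs1, Socs2 and Cish over Socs3 (Cish over Socs3 is the ratio of the text turned round) are higher at 3 h than at 1 h, and on the right 1442586_at and 1446085_at fall away from the brightest Socs2 probe set while 1418507_s_at and 1438470_at do not.

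Socs6, an adaptor-like member that binds the receptor Kit, was higher only at 6 h among the 3 comparisons with 0 h. Its brightest probe set, 1450129_a_at, had signals of 83.7, 68.9 and 82.4 at 0 h, 104, 95.4 and 95.7 after 1 h, 81.9, 73.4 and 96.1 after 3 h, and 142, 181 and 151 after 6 h. Every 6 h array was above all the others, and 28.7% of all probe sets had all 6 h arrays above those at 3 h. The log2 change was 1.01 at 6 h (SE 0.13, adjusted p = 0.000742), a 2.01-fold higher signal, and 0.92 for 6 h against 3 h (adjusted p = 0.00279). After quantile normalization this step was 0.58 (adjusted p = 0.0282), and after scaling to a common median 0.53 (adjusted p = 0.05). The other Socs6 probe sets, 1435492_at and 1452764_at, had changes of 0.50 and 0.36 at 6 h that did not pass.

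Socs5, a member known to lower epidermal growth factor receptor levels, also had its highest level at 6 h, in 1 of 2 probe sets. Probe set 1423349_at had signals of 36.6, 40.0 and 47.0 at 0 h, 71.2, 57.1 and 37.8 after 1 h, 43.5, 40.3 and 35.3 after 3 h, and 70.7, 85.7 and 83.2 after 6 h. The 1 h arrays were widely spread, and the 6 h arrays were above those at 0 h and 3 h. Its log2 change was 0.96 at 6 h (SE 0.21, adjusted p = 0.0118) and 1.01 for 6 h against 3 h (adjusted p = 0.0131). That step was 0.62 after quantile normalization (adjusted p = 0.0699) and 0.63 after scaling to a common median (adjusted p = 0.0831). Probe set 1423350_at had 20.4, 28.0 and 22.9 at ConA 3 h, against 41.7, 35.2 and 38.1 at 0 h, and was the only one of the 24 to pass as lower against 0 h (-0.70, adjusted p = 0.0499). This call did not hold after quantile normalization (-0.43, adjusted p = 0.246), nor after scaling to a common median (-0.45, adjusted p = 0.255), and leaving out any of 9 of the 12 arrays gave an adjusted p between 0.0509 and 0.142. The same probe set was lower at 3 h than at 1 h (-0.97, adjusted p = 0.0144) and higher at 6 h than at 3 h (0.92, adjusted p = 0.0143), and after quantile normalization these had adjusted p values of 0.143 and 0.158. Without ConA 1 h replicate 1 the adjusted p of 3 h against 1 h was 0.0524.

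For Socs4 the brightest probe set passed in no comparison. Signals of 1455142_at were 236, 196 and 195 at 0 h, 281, 241 and 221 after 1 h, 185, 214 and 178.5 after 3 h, and 216, 235 and 209.5 after 6 h, and all 4 groups overlapped with at least one other. The 3 h arrays lay below all 1 h arrays, with a log2 change of -0.36 (95% interval -0.64 to -0.08, adjusted p = 0.0808). After quantile normalization that difference was -0.04. Against 0 h its log2 changes were 0.24 (95% interval -0.03 to 0.52), -0.12 (-0.40 to 0.16) and 0.08 (-0.20 to 0.36) over the time points, and the sign of both later values turned under quantile normalization (0.056 and -0.031). The dim probe set 1421273_at had signals of 15.3, 13.2 and 15.9 at 0 h, 26.5, 32.5 and 41.0 after 1 h, 34.0, 27.6 and 26.5 after 3 h, and 36.2, 19.5 and 25.2 after 6 h, with all arrays after ConA above those at 0 h. Its log2 change of 1.15 for ConA 1 h just missed the threshold (adjusted p = 0.0535) and passed when replicate 1 or 2 of the 6 h arrays was left out (adjusted p = 0.0258 and 0.0373). It was higher by 0.98 for ConA 3 h (adjusted p = 0.025) and by 0.82 for ConA 6 h (adjusted p = 0.0368). Its call at 6 h was lost under quantile normalization (0.67, adjusted p = 0.139), and its call at 3 h had adjusted p values from 0.0519 to 0.0859 when replicate 1 or 2 of the 0 h arrays or any 3 h array was left out. Also dim, 1421274_at, had 7.77, 6.76 and 9.83 at ConA 6 h, against 1.16, 2.54 and 4.12 at 0 h, where 2 of 3 arrays were under the floor, and passed at 6 h (1.25, adjusted p = 0.0106). The remaining one, 1421275_s_at, passed in no comparison.

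No probe set of Socs7 passed in any comparison of the deposited signals. Its brightest, 1455402_at, had signals of 76.0, 99.9 and 69.9 at 0 h, 109.8, 104 and 119.9 after 1 h, 102, 107 and 119 after 3 h, and 100.1, 125 and 103 after 6 h. All 9 arrays after ConA were above all 3 at 0 h, with log2 changes of 0.46 (95% interval 0.12 to 0.79), 0.43 (0.10 to 0.76) and 0.43 (0.10 to 0.76) and adjusted p values of 0.235, 0.09 and 0.0725. At 3 h the change was 0.63 after quantile normalization (adjusted p = 0.018) and 0.67 after scaling to a common median (adjusted p = 0.00678). At 1 h the same scalings lowered it to 0.32 and 0.36 (adjusted p = 0.422 and 0.271). At 6 h they lowered it to 0.29 each (adjusted p = 0.196 and 0.13). Without 0 h replicate 2 the adjusted p was 0.0263 at 3 h and 0.0152 at 6 h. Leaving out any other array did not bring either under the threshold, with adjusted p values up to 0.237 and 0.214. Probe set 1434834_at, at 0.36 for ConA 3 h (adjusted p = 0.133), also passed after quantile normalization (0.60, adjusted p = 0.0257) and after scaling to a common median (0.61, adjusted p = 0.0262). For 6 h against 3 h it was then lower (-0.56, adjusted p = 0.0321 and 0.0348). The dimmest Socs7 probe set, 1438492_at, was listed between 1.08 and 11.0 over the 12 arrays.

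Between neighbouring ConA time points, 3 of the 24 probe sets of the family passed in each comparison. In 6 of the 24, all arrays at 3 h lay above those at 1 h, as in 4.94% of all probe sets. For 3 h against 1 h, 2 were higher (Socs1 and Socs2 1449109_at) and 1 lower (Socs5 1423350_at), against 2.09% higher and 12.8% lower among all probe sets. For 6 h against 3 h, 3 were higher (both of Socs5 and Socs6 1450129_a_at) and none lower, against 14.3% and 2.42%, so the count of 3 higher is near that share. Both splits depended on scaling. After quantile normalization, and equally after scaling to a common median, 4 were higher and none lower for 3 h against 1 h (Socs1 and Socs2 1449109_at, 1418507_s_at and 1438470_at). For 6 h against 3 h, 1 was then higher (Socs6 1450129_a_at) and 2 lower (Socs2 1442586_at and Socs7 1434834_at). Without 0 h replicate 1, 5 passed in each of these comparisons.

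For each member whose brightest probe set passed the F test, the genes outside the family with the closest profile were listed by Pearson's r of log2 signal over the 12 arrays, among 18185 genes. Nearest to Socs3 were Cxcl1, a neutrophil chemokine (r = 0.988), Gadd45g, a stress gene (0.978), and Tnfaip3, an inhibitor of NF-kB signalling (0.978). The nearest to Socs1 were Adar, an RNA-editing enzyme (0.982), Irgm2, an immunity-related GTPase (0.982), and Pik3ap1, a signalling adaptor (0.98). Socs2 lay closest to Cxcl9, a chemokine for activated T cells (0.99), Bcl10, an adaptor upstream of NF-kB (0.987), and Prdm4, a zinc finger protein (0.975). Cish lay closest to Atf3, a stress-induced transcription factor (0.977), and to the adhesion molecules Sele (0.968) and Icam1 (0.963). For Socs5 the nearest were Stra6l, a retinol transporter (0.986), Ddx1, an RNA helicase (0.982), and Ambp, a plasma protein precursor (0.97), and for Socs6 they were Ftsj3, a ribosomal RNA methyltransferase (0.961), Slc39a6, a zinc transporter (0.959), and Zfp131, a zinc finger protein (0.958). Within the family, Socs1 and Socs2 had an r of 0.952, Socs2 and Socs3 one of 0.863, and Socs1 and Socs3 one of 0.744. All such values share the same 12 arrays and the same 4 time points and are descriptions.

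Upstream of the family stand the ligands and receptors whose signals it dampens. Of 23 measured ligand genes, 3, 5 and 7 were higher at the successive time points and none was lower. Among all 18193 genes, 1.45%, 4.76% and 14.4% were higher and 0.148%, 12.9% and 11.8% lower. Ifng, the interferon that Socs1 restrains, had mean signals of 1.99 at 0 h, 40.4 at 1 h, 88.9 at 3 h and 96.5 at 6 h. Il6, the inducer of Stat3, peaked early, with 3.21, 59.9, 17.5 and 22.4, and Il2, a T cell growth factor that signals through Stat5, had 1.59, 10.7, 31.2 and 49.2. No receptor gene of 26 passed at 1 h. At 3 h, 7 of these were higher, and at 6 h, 11 were, with the same single gene lower both times. Osmr, the oncostatin M receptor chain that pairs with gp130, rose by 3.77 on the log2 scale at 6 h (adjusted p = 0.000171), and Csf3r, the receptor of granulocyte colony-stimulating factor, by 2.04 (adjusted p = 0.0236). Il22ra1, the interleukin 22 receptor, averaged 34.3 at ConA 6 h, against 1.77 at 0 h, where its mean lay under the floor of 3.04, so its change of 3.47 (adjusted p = 1.11e-06) was measured from the floor. The single lower receptor was Ghr, the growth hormone receptor that Socs2 and Cish restrain, named after its value was seen, with mean signals of 4494, 4314, 3613 and 2739 over the 4 time points (log2 change -0.72 at 6 h, adjusted p = 0.000561).

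Among 10 JAK and STAT genes, 1 was higher at 1 h and 5 were higher at each later time point, with none lower. Of all genes, 1.45%, 4.76% and 14.4% were higher and 0.148%, 12.9% and 11.8% lower at the successive time points. Stat3 had mean signals of 743, 1173, 2018 and 2752 (log2 change 1.90 at 6 h, adjusted p = 4.03e-05). Stat5a was higher at 3 h (1.41, adjusted p = 0.00122), with mean signals of 72.5, 91.7, 194 and 80.2, and Jak3 was higher at 6 h (1.39, adjusted p = 0.00578). Of 13 other inhibitors of the pathway, 1, 4 and 7 were higher over the time points, beside the same shares of all genes, with none lower. Usp18, which restrains interferon signalling at the receptor, rose by 3.34 at 6 h (adjusted p = 5.24e-06), and the phosphatases Ptpn2 and Ptpn1 by 2.27 and 2.25 (adjusted p = 1.63e-05 and 1.51e-06).

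The SOCS box recruits a set of 6 partner genes measured here, of which none passed at 1 h or 3 h. At 6 h Eloc, which encodes elongin C, was the only one higher (0.37, adjusted p = 0.0332), beside 14.4% of all genes. Among 26 other genes with a SOCS box, 1 was higher at 1 h (1.45% of all genes). At 3 h there were 6 lower and 1 higher (12.9% and 4.76% of all genes), and at 6 h 1 lower and 5 higher (11.8% and 14.4%). Asb4, an ankyrin repeat member, had mean signals of 4.60, 9.60, 33.1 and 32.9 (log2 change 2.89 at 3 h, adjusted p = 0.00129). Wsb1, a WD40 repeat member, had 99.3, 342, 125 and 435, so that it was high at 1 h and 6 h and low between (log2 change 2.11 at 6 h, adjusted p = 0.000181). Spsb4, which in other settings marks inducible nitric oxide synthase for degradation, fell by 2.52 at 6 h (adjusted p = 0.00257).

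Among the listed targets of the STATs, those of STAT3 that passed against 0 h were higher. The listed growth hormone targets of STAT5 that passed were lower. Cish, a known target of Stat5 outside that list, was higher at each ConA time point. Of 18 STAT3 targets, 8, 13 and 18 were higher at the successive time points (1.45%, 4.76% and 14.4% of all genes), with none lower. Lcn2, an iron-sequestering acute-phase protein, had mean signals of 359, 1718, 6019 and 9441, and the acute-phase gene Saa2 had 422, 3610, 7048 and 8349. Il1rn, the interleukin 1 receptor antagonist, rose by 4.54 on the log2 scale at 3 h (adjusted p = 0.00098). Of 11 growth hormone targets of STAT5, none passed at 1 h, while 2 and then 4 were lower, with none higher. Among all genes, 12.9% were lower at 3 h and 11.8% at 6 h, so the count of 2 at 3 h is near that share. Hsd3b5, a male-specific steroid enzyme, had mean signals of 2422, 1507, 1167 and 152 (log2 change -3.96 at 6 h, adjusted p = 0.000991), Igfals, which binds circulating IGF-1, 549, 610, 330 and 121 (-2.21, adjusted p = 0.00048), and the organic anion transporter Slco1a1 2310, 1602, 1456 and 1223 (-0.92, adjusted p = 0.00553). Of 7 growth factor receptors and adaptors that the family is known to restrain, none passed at 1 h, and the later time points each had 1 higher and 1 lower. At 6 h these counts are near the shares of all genes, 14.4% higher and 11.8% lower. Egfr was the higher one (1.24 at 6 h, adjusted p = 0.00301), and Irs1, the insulin receptor substrate, the lower one (-2.86 at 6 h, adjusted p = 0.000236).

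**Figure D4:**
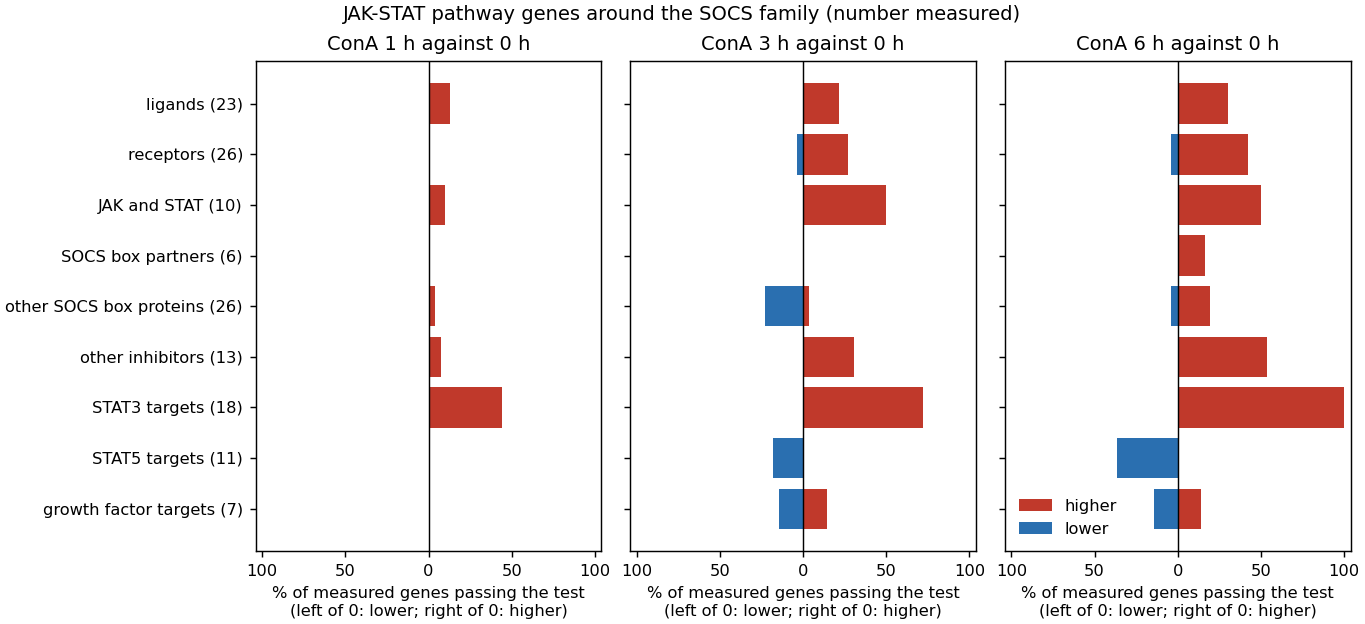
Percentage of the measured genes of each list (number in brackets) that passed an adjusted p of 0.05 as higher (right of 0) or lower (left of 0) at each ConA time point against 0 h, with 3 arrays per group. All 18 STAT3 targets are higher at 6 h, 4 of 11 STAT5 targets are lower at 6 h, and 1 of 6 SOCS box partners passed at any time point.

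Whole liver holds many cell types, and in such bulk RNA fewer cells of a type and less RNA per cell cannot be told apart. The summed signal of 9 neutrophil markers was 107 to 161 at 0 h and 838 to 1156 at 1 h. It was 1497 to 2134 at 3 h and 1653 to 2593 at 6 h. Like the brightest probe sets of Socs1, Socs2, Socs3 and Cish, it lay above its 0 h range at each ConA time point. The median of the sum rose at each step. Of its members, S100a8 and S100a9 had mean signals of 482 and 409 at 1 h and 1149 and 777 at 6 h. Mean Socs3 was highest at 1 h and mean Cish at 3 h, but neither 3 h against 1 h nor 6 h against 3 h passed for these 2 genes. Of the 9 markers, 4, 5 and 7 were higher at the successive time points. Among all genes, 1.45%, 4.76% and 14.4% were higher and 0.148%, 12.9% and 11.8% lower, which holds beside each marker count below. None of the 9 neutrophil markers lay under the floor on all arrays of a group. The sum of 4 monocyte markers was 218 to 282 at 0 h, 201 to 349 at 1 h, 423 to 530.4 at 3 h and 886 to 931 at 6 h, and 0, 3 and 4 of them were higher. One of these, Chil3, lay under the floor on all arrays at 0 h. Of 11 T cell markers, 4 were higher at 6 h and none before, and their sum was 406 to 487 at ConA 6 h, against 215 to 400 at 0 h, while Cd4 lay under the floor on all arrays at 1 h and 3 h. Of 8 NK cell markers, 2 were higher at both later time points, with a sum of 390 to 518 at ConA 6 h, against 79.6 to 113 at 0 h. None of 5 B cell markers passed at any time point. Of 8 Kupffer cell markers 4 were lower at both later time points and 1 was higher at 6 h, with a sum of 1108 to 1488 at ConA 6 h, against 1913 to 2593 at 0 h. The higher one, Marco, lay under the floor on all arrays at 0 h, so its change was measured from the floor. Of 8 sinusoidal endothelial markers, 1 was lower at 3 h, which is near the share of all genes. At 6 h 3 of them were lower and 2 others were higher. Of 8 stellate cell markers, 4 were lower at both 3 h and 6 h. The 11 hepatocyte markers, which identify the tissue as liver, summed to 91350 to 104900 over all arrays, and only Ambp passed (0.30 at 6 h, adjusted p = 0.0283). The part of these cell types in the changes of the SOCS family was not tested.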

How the data were processed

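Liver RNA was measured on 12 Affymetrix mouse arrays. The deposited table holds linear intensities, 1 per probe set and array; the labels name MAS5 version 5.0, whereas the methods name RMA. Their distributions differ between arrays, as RMA's quantile step would not leave them, and they were used as deposited. Array medians lay between 13.7 and 20.4, and 17.4 to 23.1% of probe sets were at the floor.

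Signals under the 20th percentile (3.04) were set to it and log2 was taken. All 45037 probe sets other than 64 controls entered 1 limma 3.58.1 fit (R 4.3.3) of 4 group means without intensity trend or replicate block. P-values were adjusted by Benjamini-Hochberg over all of them, at 0.05. Genes (18193) were represented by their probe set with the highest mean among those with 1 symbol, and symbols were updated by Entrez ID for 34741 of 34945 probe sets. Labels give 1 liver sample per array, and p-values measure the spread between 3 of these per group. The fit was tested on simulated data.

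Named were all 8 members and their probe sets, the 3 closest genes by correlation, and at most the 3 largest passing changes of each pathway list. Members and lists were chosen with earlier results of these data known. Columns of the authors' own comparisons were not used. Alternatives were quantile normalization, scaling to a common median, a pseudocount of 1 without floor, brighter probe sets only, an intensity trend, a replicate block, only the 2 groups compared, genes in place of probe sets, and leaving out each array. One pathway list is not reported here.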

Additional observations from a re-analysis of the deposited data

Results flagged for a closer look

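For 4 members the deposited signal differed between neighbouring ConA time points by a direct test of the difference in limma. Not all of these steps held under the alternatives. Socs1 was higher at 3 h than at 1 h by 3.82 on the log2 scale (adjusted p = 0.00134), with all 3 arrays above. Socs2 (1449109_at) was higher at 3 h than at 1 h by 1.49 (adjusted p = 0.0349), also with all 3 arrays above. This call was lost when any of 5 of the 12 arrays was left out, and with only the 2 groups compared (adjusted p = 0.0728). Socs5 (1423349_at) was higher at 6 h than at 3 h by 1.01 (adjusted p = 0.0131), and Socs6 (1450129_a_at) by 0.92 (adjusted p = 0.00279). In this comparison 14.3% of all probe sets were higher, and their median log2 change was 0.24. After quantile normalization and scaling to a common median, the Socs5 step did not pass (adjusted p = 0.0699 and 0.0831). That of Socs6 had adjusted p values of 0.0282 and 0.05. Groups of 3 arrays are too small for the test of single outlying samples.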

How the results depend on the processing

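The rises of Socs3, Socs1 and Socs2 at 3 h and 6 h, of Cish at 3 h and 6 h, of Socs3 at 1 h and of Socs6 at 6 h kept their direction and passed under every alternative run. So did that of Socs5 1423349_at at 6 h against 0 h, with an adjusted p of up to 0.0454 when 1 array was left out. The count of family probe sets that passed at 1 h was 3 when only the 2 groups compared were fitted, which leaves fewer arrays, and that for 6 h against 3 h was then 5 (2 higher and 3 lower). With only the brighter probe sets, 5 passed for 3 h against 1 h. With genes in place of probe sets, the counts were 4 at 1 h, 4 at 3 h, 6 at 6 h and 6 by the F test. Leaving out 1 array at a time gave counts of 5 to 9 at 1 h, 10 to 12 at 3 h, 13 to 14 at 6 h, 2 to 5 for 3 h against 1 h, 3 to 5 for 6 h against 3 h (5 in both without 0 h replicate 1) and 13 to 15 by the F test.

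Changes that had not passed turned sign as follows, and the cause was not tested. After quantile normalization, Socs4 was at 0.056 at 3 h, -0.031 at 6 h and -0.087 for 6 h against 3 h, Socs5 at 0.22 at 3 h, and Socs6 at 0.12 and Socs7 at 0.31 for 3 h against 1 h. After scaling to a common median, the same changes were 0.13, -0.058, -0.18, 0.19, 0.10 and 0.31, and Socs3 was at -0.22 for 6 h against 3 h. Leaving out 1 array gave -0.19 to 0.10 for Socs1, -0.24 to 0.012 for Socs2 and -0.10 to 0.062 for Socs7 at 6 h against 3 h, -0.089 to 0.029 for Socs7 at 3 h against 1 h, and -0.13 to 0.046 for Socs5 and -0.0094 to 0.19 for Socs6 at 3 h. Socs1 at 1 h passed with brighter probe sets only (adjusted p = 0.0124), with a trend (0.0465) and over genes (0.0493). It did not pass after quantile normalization (0.0569), scaling to a common median (0.0577) or with a pseudocount (0.0608). Nor did it with a replicate block (0.0782) or with only the groups compared (0.292). When only the groups compared were fitted, Socs2 (0.219) and Cish (0.169) at 1 h and Socs2 at 3 h against 1 h (0.0728) did not pass.

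The replicate number was also fitted as a replicate block. Residuals of 18 pairs of arrays with the same number correlated between -0.01 and 0.04, and those of 36 pairs with other numbers between -0.04 and 0.03, so the numbers were not taken to pair the arrays. With the block, 7, 11 and 14 probe sets passed against 0 h, 4 and 3 between ConA time points and 14 by the F test, and no call of a member's brightest probe set changed. Array signals near the floor limit Socs1, Socs2 1446085_at and Socs2 1438470_at at 0 h, Socs2 1441476_at, Socs4 1421274_at and Socs7 1438492_at.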
